A study of Rattus norvegicus with 16 samples.

Results

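The AP-1 family was described across 3 groups of cultured rat pancreatic islets through the 15 probe sets annotated to Fos, Fosb, Fosl1, Fosl2, Jun, Junb, Jund, Atf3 and Maff. All 9 genes were measured, out of 14217 genes and 31042 probe sets that were not array controls. Fos, Jund, Jun and Fosl2 had over 1 probe set. The study's title ties the homeodomain transcription factor Nkx6.1 to β-cell proliferation through the nuclear receptors Nr4a1 and Nr4a3. AdNkx6.1 islets (5 arrays) had received an adenovirus that expresses Nkx6.1. Adβgal islets (6 arrays) had received the control adenovirus, which expresses β-galactosidase. Untreated islets (5 arrays) had received no virus. All 3 groups were islets of male Wistar rats aged 8 weeks, cultured in RPMI with 8 mM glucose and 10% serum. Virus was left on the islets for 18 h, and RNA comes from islets taken 48 h after it was added. The promoter that drives each transgene, and whether islets of several animals were pooled, are not given in the sources used here. The titles call the arrays biological replicates, but nothing names separate animals or cultures, so p-values measure only the spread between these arrays.

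AP-1 is a set of dimers of basic leucine zipper (bZIP) proteins that bind a short palindrome in enhancers and promoters. Fos proteins bind DNA mainly as partners of Jun proteins, whereas Jun proteins can also pair with each other. Fos, Fosb and Atf3 are immediate early genes, whose mRNAs are made within minutes of growth factor, calcium, cAMP or stress signals and decay quickly; in β cells Fos mRNA is also induced by glucose and cAMP. Atf3 is a stress-induced bZIP factor that can pair with Jun proteins. Maff is a small Maf protein, a bZIP factor with no activation domain, and is a relative of the Fos and Jun proteins rather than a core subunit.

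The RefSeq promoter sequences used here (build GRCr8) covered 6 of the 9 genes (Fosb, Fosl1, Fosl2, Junb, Jund and Maff). They held none for Fos, Jun or Atf3, so those genes were not searched. The 250 bases before each annotated start were searched on both strands for 5 motifs. Maff and Fosl1 are shown as examples of genes whose mRNA was higher in every AdNkx6.1 array than in every other array. Jund and Junb are shown as examples of genes for which that did not hold. Fosb, which was also higher in every AdNkx6.1 array, and Fosl2 were searched but are not shown. Capitals mark a cAMP response element (TGACGTCA) or an Egr site (GCGTGGGCG). The Maff window is chr7:112792537-112792786 on the plus strand and the Fosl1 window is chr1:212183635-212183884 on the plus strand. The Jund window is chr16:18769772-18770021 on the minus strand and the Junb window is chr19:40080876-40081125 on the plus strand.
Maff: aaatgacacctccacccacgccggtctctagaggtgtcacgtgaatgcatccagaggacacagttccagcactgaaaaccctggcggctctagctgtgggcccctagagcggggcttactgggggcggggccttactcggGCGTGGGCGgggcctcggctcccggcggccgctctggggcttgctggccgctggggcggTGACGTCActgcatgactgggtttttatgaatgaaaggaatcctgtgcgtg
Fosl1: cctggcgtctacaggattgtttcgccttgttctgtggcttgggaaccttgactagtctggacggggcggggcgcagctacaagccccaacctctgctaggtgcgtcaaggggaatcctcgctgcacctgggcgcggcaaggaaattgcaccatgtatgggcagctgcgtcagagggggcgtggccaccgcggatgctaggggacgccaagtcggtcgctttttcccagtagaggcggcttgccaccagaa
Jund: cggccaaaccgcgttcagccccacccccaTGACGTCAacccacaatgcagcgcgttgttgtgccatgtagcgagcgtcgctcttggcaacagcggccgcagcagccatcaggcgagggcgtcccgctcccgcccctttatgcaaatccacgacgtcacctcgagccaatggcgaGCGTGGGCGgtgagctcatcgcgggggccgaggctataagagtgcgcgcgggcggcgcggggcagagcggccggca
Junb: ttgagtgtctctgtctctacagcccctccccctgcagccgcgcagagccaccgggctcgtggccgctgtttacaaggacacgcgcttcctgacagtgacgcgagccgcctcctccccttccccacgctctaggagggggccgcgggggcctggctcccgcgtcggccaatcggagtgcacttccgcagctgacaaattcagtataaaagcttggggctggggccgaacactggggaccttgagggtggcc
Maff held the Egr site at position -110 and the cAMP response element at position -51, counted to the first base of the match from the annotated start. Jund, whose call differed from that of Maff, held the same pair of motifs, at positions -76 and -221. The Fosb, Fosl1, Fosl2 and Junb windows held 0 matches to any of the 5 motifs. The cAMP response element was in 1.59% of all 33469 promoter windows of that length and the Egr site in 0.478%. The other motifs searched were the AP-1 site TGANTCA (6.34% of windows), the CArG box that serum response factor binds (1.5%) and the homeodomain site TTAATTA (2.75%). A match is a run of letters, not a measured binding site.

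Values are log2 intensity, on which a difference of 1 is a 2-fold change. The array medians lay between 264.8 and 296.2 intensity units, and the number of arrays limits the precision. The β-cell genes Ins1 (14.43 to 14.89), Ins2 (14.61 to 14.91) and Iapp (13.98 to 14.38) were bright on all 16 arrays. The spread was wider among Adβgal arrays than in the other groups: the SD of the log2 difference between 2 arrays reached 0.818 in Adβgal islets, against 0.459 in AdNkx6.1 islets and 0.310 in untreated islets. Adβgal replicate 5 stood apart in the RNA control probe sets, which did not all go the same way. Its Gapdh control probe sets differed by 2.80 between the 3′ and 5′ ends, against 0.62 to 1.14 in AdNkx6.1 islets and 0.96 to 1.30 in untreated islets. Its β-actin difference was also the largest of the 16 arrays, at 5.35, but its hexokinase difference was the smallest, at 0.48. Adβgal replicates 4, 5 and 6 had the highest summed intensity of 12 acinar cell markers, from 54796 to 79523, against 20306 to 45757 in AdNkx6.1 islets and 23094 to 35819 in untreated islets. Values of the AP-1 genes and counts of the gene lists are in several places also given without these arrays. The probe set for Nkx6-1 was lower in AdNkx6.1 islets than in Adβgal islets (-0.46 ± 0.10 SE, limma adjusted p = 0.0023). Its place relative to the delivered sequence is not given in the sources used here, so it does not check the labels.

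With the Nkx6.1 virus set against the control virus, 5 of the 9 genes were higher: Fosb, Fosl1, Maff, Fos and Atf3. The changes were 6.74-fold for Fosb, 3.74-fold for Fosl1, 2.69-fold for Maff, 2.38-fold for Fos and 1.29-fold for Atf3. None of the 9 was lower, and 0 were lower at an unadjusted p under 0.05 in limma. Jun, Junb, Jund and Fosl2 did not pass the test. Among all genes, 16.6% were called higher and 8.48% lower, and 25% were called in either direction. The median change of the 9 was 0.37 on the log2 scale, beside 0.02 over all genes. For 4 of the 9 (Fosb, Fosl1, Maff and Fos), every AdNkx6.1 array was above every Adβgal array, which held for 10.4% of all genes. Islets hold several cell types, so fewer cells of a type and less RNA per cell cannot be told apart in these values.

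**Figure D1:**
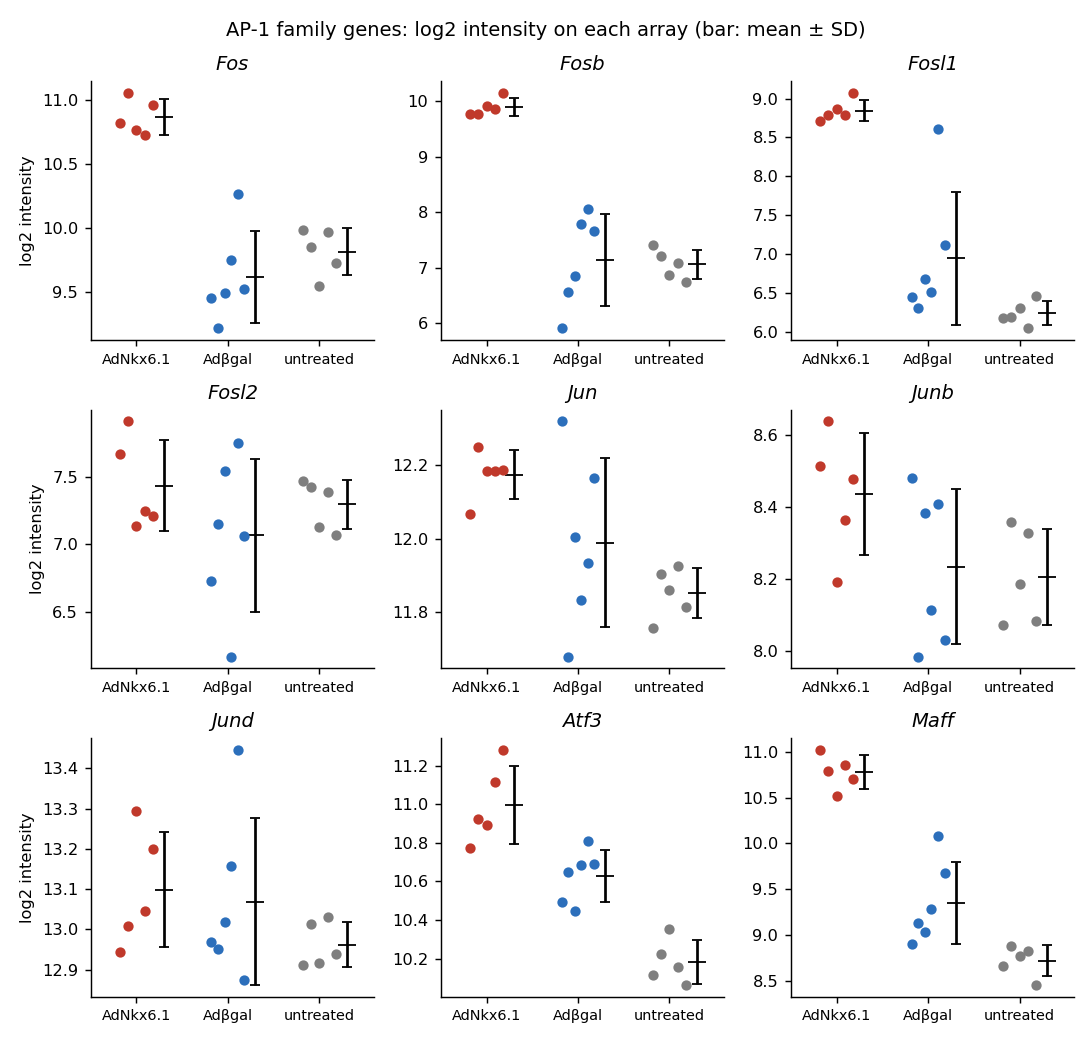
Log2 intensity (y axis) of the 9 AP-1 genes, 1 panel a gene, on every array of the AdNkx6.1, Adβgal and untreated groups (x axis). Points are arrays and bars are the mean ± SD; Fosb averaged 9.89 in AdNkx6.1 islets, against 7.14 in Adβgal islets and 7.07 in untreated islets, with no overlap between AdNkx6.1 and the other groups.

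Fosb, which encodes a Fos subunit linked to lasting responses in neurons, gave the widest difference of the family. Its 5 AdNkx6.1 arrays read 9.77, 9.78, 9.92, 9.85 and 10.15. The lowest Adβgal array read 5.92, the median 7.26 and the highest 8.07. Untreated islets read 7.40, 7.22, 6.88, 7.09 and 6.75. AdNkx6.1 arrays were tightly grouped and above all others, whereas Adβgal arrays spread on both sides of the untreated ones. Fosb was 2.75 ± 0.30 (SE) higher in AdNkx6.1 islets than in Adβgal islets (limma adjusted p = 5.99e-06), and 23 genes of the 14217 had a larger increase. Adβgal replicates 4, 5 and 6 were the 3 highest Adβgal arrays for Fosb, at 7.79, 8.07 and 7.66. Without them the difference was 3.45 (limma adjusted p = 5.17e-08), and without replicate 5 alone it was 2.94.

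Fosl1 encodes Fra-1, a Fos subunit that lacks a strong activation domain. AdNkx6.1 arrays read 8.71, 8.79, 8.87, 8.79 and 9.07 for Fosl1. Adβgal arrays had a lowest value of 6.31, a median of 6.59 and a highest value of 8.61. In untreated islets Fosl1 read 6.18, 6.19, 6.30, 6.05 and 6.46. The highest Adβgal value was replicate 5, close to the AdNkx6.1 arrays but below all of them, and the other Adβgal arrays lay between 6.31 and 7.11. The difference between AdNkx6.1 and Adβgal islets was 1.90 ± 0.30 (limma adjusted p = 0.00022). Without Adβgal replicate 5 it was 2.24 (limma adjusted p = 1.18e-08).

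Fos, the founding member and a classic early mark of calcium and growth factor signals, read 10.82, 11.06, 10.77, 10.73 and 10.97 in AdNkx6.1 islets on probe set 1375043_at. Adβgal arrays ran from 9.22 through a median of 9.51 to 10.27. Untreated islets gave 9.99, 9.86, 9.55, 9.98 and 9.73. AdNkx6.1 arrays were all above the rest, and Adβgal and untreated arrays overlapped. Fos was 1.25 ± 0.15 higher in AdNkx6.1 than in Adβgal islets (limma adjusted p = 1.29e-05), 1.38 without Adβgal replicate 5 and 1.48 without replicates 4, 5 and 6. A dim probe set of Fos, 1371283_at, lay between 4.23 and 5.20 on all arrays and did not show the difference (0.03 ± 0.12, limma adjusted p = 0.913). With the mean of both probe sets as the value of Fos, the change was 0.64 (limma adjusted p = 0.00014).

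Fosl2 encodes Fra-2, the remaining Fos subunit. On its brighter probe set (1383860_at) it read 7.67, 7.91, 7.14, 7.25 and 7.21 in AdNkx6.1 islets. Adβgal arrays ran from 6.17 through a median of 7.11 to 7.74, and untreated islets read 7.47, 7.43, 7.12, 7.38 and 7.07. The 3 groups overlapped. AdNkx6.1 exceeded Adβgal islets by 0.37 ± 0.23 (limma adjusted p = 0.269), with a 95% interval from -0.12 to 0.85. The Fosl2 difference was 0.19 without Adβgal replicate 4, 0.50 without Adβgal replicate 5 and 0.15 with array weights, and passed under none of these. The dimmer probe set 1387530_a_at read 6.66, 6.18, 6.25, 6.26 and 6.28 in AdNkx6.1 islets, all above the Adβgal arrays at 5.75 to 6.15. In the fit over all 31042 probe sets, where 11% were called higher, that difference of 0.31 ± 0.10 passed the test (limma adjusted p = 0.0339). Untreated islets read 6.13 to 6.37 on it, and AdNkx6.1 islets differed from them by 0.07 ± 0.10 (limma adjusted p = 0.721).

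Among the Jun proteins, the main partners of Fos proteins, no gene passed the test between the 2 viruses. Jun, the main subunit induced by stress kinases, read 12.07, 12.25, 12.19, 12.18 and 12.19 in AdNkx6.1 islets on probe set 1369788_s_at. Adβgal arrays ran from 11.68 through a median of 11.97 to 12.32, and untreated islets read 11.76, 11.90, 11.86, 11.92 and 11.81. One Adβgal array, replicate 1, was above every AdNkx6.1 array. AdNkx6.1 exceeded Adβgal islets by 0.18 ± 0.09 (95% interval -0.01 to 0.38, limma adjusted p = 0.171). Leaving out Adβgal replicate 1 made the difference 0.25, which passed (limma adjusted p = 0.0357). The other probe sets of Jun gave 0.19 ± 0.20 (1389528_s_at) and 0.15 ± 0.16 (1374404_at), and neither passed. The suffix _s_at marks probe sets whose probes can match more than 1 transcript.

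Junb, a Jun subunit with weaker activation than Jun, read 8.51, 8.64, 8.19, 8.36 and 8.48 in AdNkx6.1 islets. Adβgal arrays ran from 7.99 through a median of 8.25 to 8.48, and untreated islets read 8.07, 8.36, 8.19, 8.33 and 8.09. The groups overlapped, and AdNkx6.1 exceeded Adβgal islets by 0.20 ± 0.11 (95% interval -0.03 to 0.43, limma adjusted p = 0.189). Jund, the Jun subunit present in resting cells, read 12.94, 13.01, 13.29, 13.05 and 13.20 in AdNkx6.1 islets on probe set 1393138_at. Adβgal arrays ran from 12.87 through a median of 12.99 to 13.45, and untreated islets read 12.91, 13.01, 12.92, 13.03 and 12.94. Here too the groups overlapped, and the difference between the viruses was 0.03 ± 0.10 (95% interval -0.17 to 0.23, limma adjusted p = 0.856). For Jund that interval leaves no room for a change as large as the 1.25 of Fos, and the same held for Jun, Junb and Fosl2.

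Atf3, induced in islets by stress and cytokines, read 10.77, 10.92, 10.89, 11.12 and 11.28 in AdNkx6.1 islets. Adβgal arrays ran from 10.44 through a median of 10.67 to 10.81. Untreated islets read 10.12, 10.23, 10.35, 10.16 and 10.06. The 3 groups lay in steps, with 1 Adβgal array (replicate 5, 10.81) above the lowest AdNkx6.1 array and no overlap between Adβgal and untreated islets. AdNkx6.1 exceeded Adβgal islets by 0.37 ± 0.09 (limma adjusted p = 0.00902), and by 0.40 without Adβgal replicate 5.

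Maff also lay in steps. AdNkx6.1 arrays read 11.02, 10.79, 10.52, 10.85 and 10.70. The Adβgal arrays ran from 8.90 through a median of 9.21 to 10.08. Untreated islets read 8.67, 8.89, 8.77, 8.83 and 8.46. No group overlapped another, although the lowest Adβgal and the highest untreated value differed by little. Maff was 1.43 ± 0.18 higher in AdNkx6.1 than in Adβgal islets (limma adjusted p = 1.91e-05), 1.57 without Adβgal replicate 5 and 1.75 without replicates 4, 5 and 6.

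**Figure D2:**
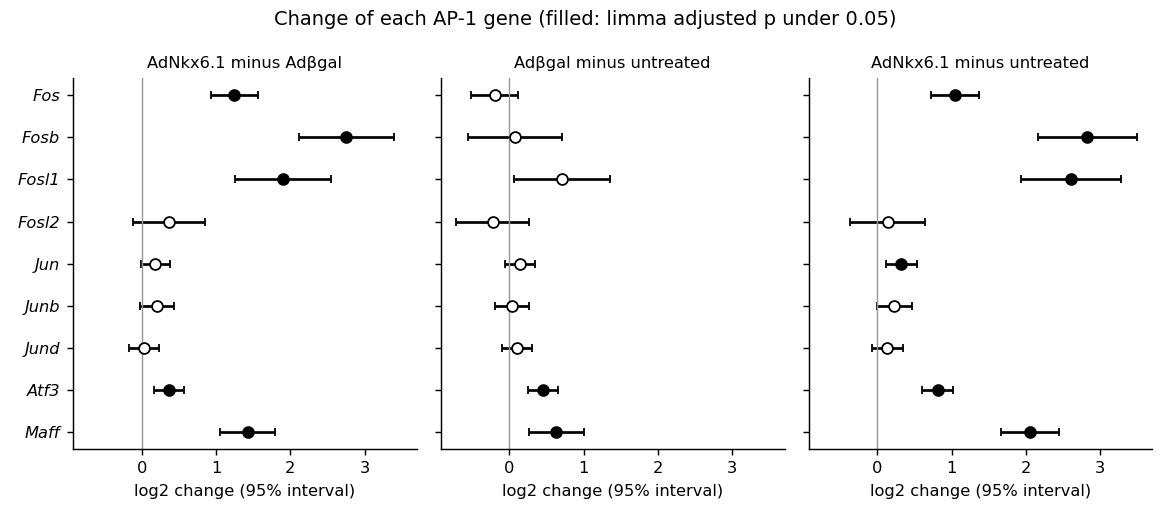
Log2 change with its 95% interval (bars) of each AP-1 gene in 3 comparisons: AdNkx6.1 minus Adβgal, Adβgal minus untreated and AdNkx6.1 minus untreated. Filled points passed a limma adjusted p of 0.05; they number 5, 2 and 6 of the 9 genes.

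The control virus by itself was set against untreated islets. It also expresses β-galactosidase, so transduction and transgene cannot be told apart in this comparison. In that comparison 2 of the 9 genes were higher, Atf3 (1.36-fold) and Maff (1.55-fold), and 0 were lower (0 also at an unadjusted p under 0.05 in limma). Among all genes 2.84% were called higher, 4.17% lower and 7.01% in either direction. The median of the 9 was 0.11, beside -0.04 over all genes. For Atf3 and Maff every Adβgal array was above every untreated array, as was the case for 2.05% of all genes. Atf3 differed by 0.45 ± 0.09 (limma adjusted p = 0.0112) and Maff by 0.63 ± 0.18 (limma adjusted p = 0.0413).

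Both calls depended on the arrays used. Without Adβgal replicates 4, 5 and 6, Atf3 differed by 0.35 (limma adjusted p = 0.0915) and Maff by 0.30 (limma adjusted p = 0.16), and no member was called. The Maff call was also lost when any of AdNkx6.1 replicates 2, 4 or 5, Adβgal replicates 4 or 6, or any 1 of the untreated replicates was left out, with limma adjusted p up to 0.112. Atf3 kept its call whichever single array was left out, with limma adjusted p up to 0.0382. Fosl1 was 0.71 ± 0.30 higher in Adβgal than in untreated islets and did not pass (95% interval 0.07 to 1.35, limma adjusted p = 0.159). Without Adβgal replicate 5 the Fosl1 difference was 0.37 (limma adjusted p = 0.0838). Fosb (0.07 ± 0.30) and Fos (-0.20 ± 0.15) did not pass either. Without replicates 4, 5 and 6 the values were -0.62 for Fosb (limma adjusted p = 0.0879) and -0.43 for Fos (limma adjusted p = 0.0524). Fosl2, Jun, Junb and Jund lay between -0.23 and 0.14 and did not pass.

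Against untreated islets, AdNkx6.1 islets had 6 of the 9 genes higher, and these 6 were Fosb, Fosl1, Maff, Fos, Atf3 and Jun. None was lower (0 at an unadjusted p under 0.05 in limma). The changes were 7.10-fold for Fosb, 6.11-fold for Fosl1, 4.15-fold for Maff, 2.07-fold for Fos, 1.76-fold for Atf3 and 1.25-fold for Jun. Among all genes 16.9% were called higher, 13.8% lower and 30.7% in either direction. The median of the 9 was 0.81, beside -0.01 over all genes. Every AdNkx6.1 array was above every untreated array for the 6 genes called, which held for 17.4% of all genes. On the log2 scale Fosb differed by 2.83 ± 0.31 (limma adjusted p = 5.88e-06), Fosl1 by 2.61 ± 0.32 (1.38e-05) and Maff by 2.05 ± 0.18 (5.91e-07). Fos differed by 1.05 ± 0.15 (limma adjusted p = 8.80e-05), Atf3 by 0.81 ± 0.10 (1.43e-05) and Jun by 0.32 ± 0.10 (0.0203). The other Jun probe sets overlapped untreated islets and did not pass in the fit over all probe sets. They gave 0.43 ± 0.21 (1389528_s_at, limma adjusted p = 0.178) and 0.47 ± 0.17 (1374404_at, limma adjusted p = 0.0621). Fosl2, Junb and Jund, at 0.14 to 0.23, did not pass. These 3 comparisons share arrays, so they are not independent of each other.

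The order of the group means differed between the genes. For Fosb, Fosl1, Maff, Atf3, Jun, Junb and Jund it was AdNkx6.1, Adβgal, untreated, from high to low. For Fos and Fosl2 it was AdNkx6.1, untreated, Adβgal. The Adβgal and untreated means of Fos (9.62 ± 0.36 in Adβgal islets, 9.82 ± 0.18 in untreated islets, SD) did not differ beyond their spread. The same was true of Fosb, at 7.14 ± 0.83 in Adβgal islets and 7.07 ± 0.26 in untreated islets.

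**Figure D3:**
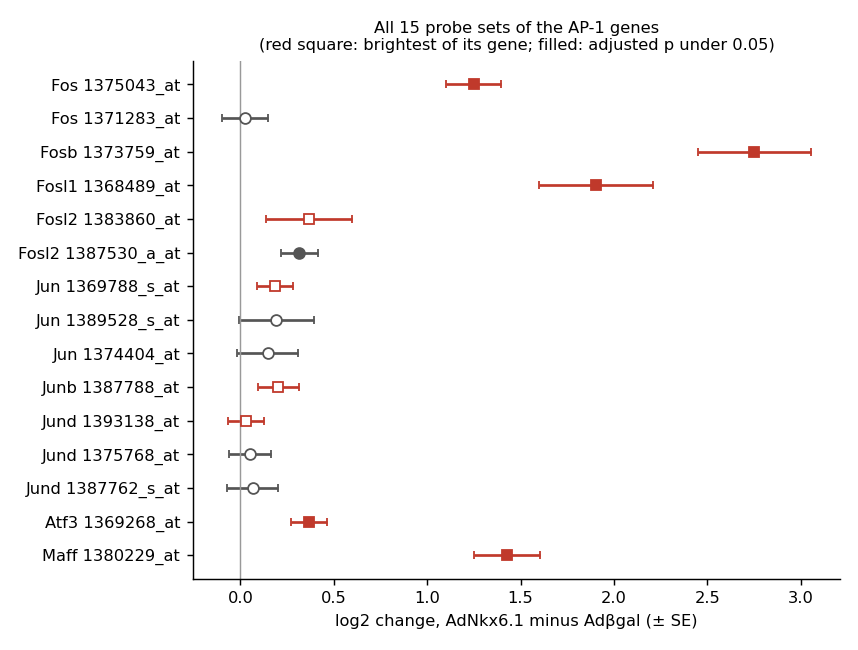
Log2 change (x axis), AdNkx6.1 minus Adβgal, with its SE for each of the 15 probe sets of the 9 AP-1 genes (y axis). Fos, Fosl2, Jun and Jund have over 1 probe set; the bright Fos probe set lay at 1.25 and the dim one at 0.03.

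Probe sets of Jund disagreed. Probe set 1375768_at read 7.47, 7.41, 7.16, 7.23 and 7.22 in AdNkx6.1 islets, and its Adβgal arrays lay at 6.98 to 7.57. Untreated islets read 7.95, 7.51, 7.65, 7.85 and 7.90 on it. In the fit over all probe sets it was lower than in untreated islets in AdNkx6.1 islets (-0.47 ± 0.12, limma adjusted p = 0.00809) and in Adβgal islets (-0.52 ± 0.11, limma adjusted p = 0.0103). The shares of all probe sets called lower were 10.6% for AdNkx6.1 against untreated and 4.07% for Adβgal against untreated. Between the viruses it differed by 0.05 ± 0.11 (limma adjusted p = 0.786). The brightest Jund probe set did not pass in either comparison with untreated islets, and 1387762_s_at differed by 0.07 ± 0.14 between the viruses (limma adjusted p = 0.779).

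**Figure D4:**
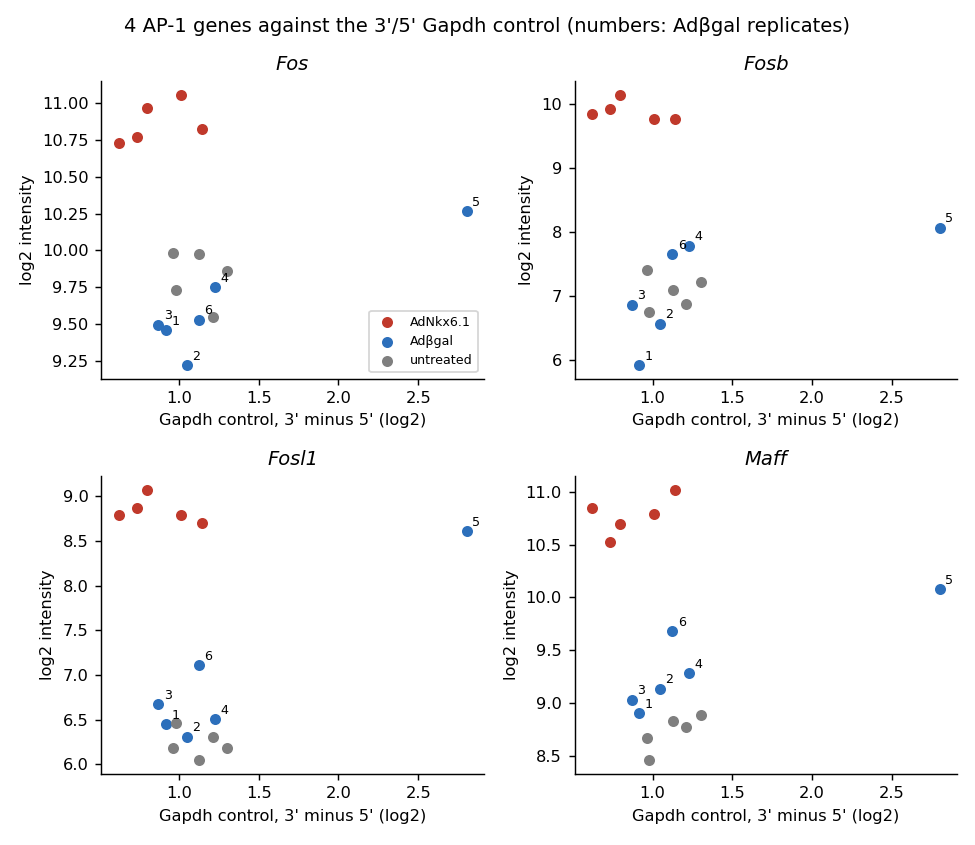
Log2 intensity (y axis) of Fos, Fosb, Fosl1 and Maff against the 3′ minus 5′ log2 difference of the Gapdh control probe sets (x axis), 1 point an array; numbers mark Adβgal replicates. Adβgal replicate 5 lies alone at 2.80 on the x axis and is the highest Adβgal array for all 4 genes.

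Adβgal replicate 5, the array with the largest Gapdh end difference, was the highest Adβgal array for Fos, Fosb, Fosl1, Fosl2, Jund, Atf3 and Maff. The differences between AdNkx6.1 and Adβgal islets for Fos, Fosb, Fosl1, Maff and Atf3 were as large or larger without it, as given above. Markers of other cells of the pancreas also differed between the groups. Between the viruses 16.6% of all genes were called higher and 8.48% lower. In sets as small as these, 1 called marker is not read as a shift of a cell type. The summed intensity of 7 measured duct cell markers was 66527 to 71395 in AdNkx6.1 islets, 48055 to 58239 in Adβgal islets and 49341 to 54912 in untreated islets, and 3 of them (Krt8, Krt18 and Krt7, keratins) passed the test as higher with the Nkx6.1 virus than with the control virus. The duct markers Krt19 (-0.01 ± 0.20) and Cftr (-0.57 ± 0.22, limma adjusted p = 0.0768) did not pass. Delta and PP cell markers (4 genes) summed to 45822 to 54710 in AdNkx6.1 islets, below the 55730 to 63406 of Adβgal islets and the 58495 to 65272 of untreated islets. Of these 4, Hhex (-0.93 ± 0.12, limma adjusted p = 2.92e-05), Pyy (-0.53 ± 0.09, 0.000246) and Ppy (-0.21 ± 0.07, 0.0421) were lower with the Nkx6.1 virus than with the control virus. The count was 2 lower without Adβgal replicate 5, and also 2 without replicates 4, 5 and 6. Of 12 acinar markers 0 were higher and 3 lower in that comparison, and 1 was lower without Adβgal replicates 4, 5 and 6. Of 9 stellate cell and fibroblast markers 2 were lower (Dcn and Tagln), 1 without Adβgal replicate 5 and 0 without replicates 4, 5 and 6. Among 3 measured α-cell markers 1 was lower between the viruses, the factor Irx2 (-0.60 ± 0.14, limma adjusted p = 0.00568). Gcg (-0.03 ± 0.07) and Ttr (-0.17 ± 0.32) did not pass. Among 6 measured β-cell markers 1 was lower, the factor Pdx1 (-0.31 ± 0.10, limma adjusted p = 0.0269). Ins1 (-0.02 ± 0.08), Ins2 (0.01 ± 0.06), Iapp (-0.03 ± 0.06), Mafa (-0.12 ± 0.06) and Slc2a2 (-0.18 ± 0.07) did not pass. Of 8 endothelial markers 0 were called in either direction (0 at an unadjusted p under 0.05 in limma), and their sums were 7655 to 14943 in AdNkx6.1 islets, 4320 to 23627 in Adβgal islets and 7715 to 9425 in untreated islets. Leukocyte marker sums (9 genes, of which 1 was lower, or 0 without Adβgal replicates 4, 5 and 6) were 7004 to 10360 in AdNkx6.1 islets, 8057 to 15909 in Adβgal islets and 7750 to 9610 in untreated islets. AdNkx6.1 islets had 4 of the 6 β-cell markers lower and 0 higher against untreated islets, where 13.8% of all genes were called lower. These were Pdx1 (-0.53 ± 0.10), Slc2a2 (-0.42 ± 0.07), Mafa (-0.25 ± 0.06) and Iapp (-0.18 ± 0.06). In the same comparison all 4 delta and PP cell markers were lower and 3 of 7 duct cell markers were higher. β-cell sums were 90862 to 107924 in AdNkx6.1 islets, 100605 to 110084 in Adβgal islets and 107254 to 120320 in untreated islets. No marker is listed at 0. The part of these cell types in the AP-1 values was not tested.

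Genes that act with AP-1 were taken from 5 lists, whose counts stand beside the shares of all genes given above (16.6% higher and 8.48% lower between the viruses). Among 19 measured bZIP partners outside the family, 2 were higher and 0 lower in AdNkx6.1 than in Adβgal islets, and 1 was lower at an unadjusted p under 0.05 in limma; the median change was -0.05, beside 0.02 over all genes. Batf3, a bZIP factor that pairs with Jun proteins, averaged 8.66 in AdNkx6.1 islets, 7.51 in Adβgal islets and 7.38 in untreated islets. It was 1.15 ± 0.12 higher with the Nkx6.1 virus than with the control virus (limma adjusted p = 5.46e-06). Mafk, a small Maf protein like Maff, was 0.26 ± 0.07 higher (limma adjusted p = 0.0136). Against untreated islets, AdNkx6.1 islets also had Batf3 and Mafk higher, and had Mafa, a large Maf activator of insulin genes, lower by 0.25 (-0.25 ± 0.06, limma adjusted p = 0.00785). Without Adβgal replicates 4, 5 and 6 the list gave 2 higher and 1 lower between the viruses, as Atf2 passed at -0.41 (limma adjusted p = 0.0248, against -0.10 with all arrays), and 3 higher and 4 lower against untreated islets. Without Adβgal replicate 5 alone the count against untreated islets was 2 higher and 2 lower. Changes in AdNkx6.1 against untreated islets, here and in the lists below, do not move when Adβgal arrays are left out. Only the spread that the 3 groups share in the fit moves. Over all genes, 3558 to 5069 were called there with 1 array of any group left out, beside 4360 with all arrays. The shares of all genes called without these Adβgal arrays are not given here. Adβgal against untreated islets gave 0 calls in either direction (1 higher and 1 lower at an unadjusted p under 0.05).

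**Figure D5:**
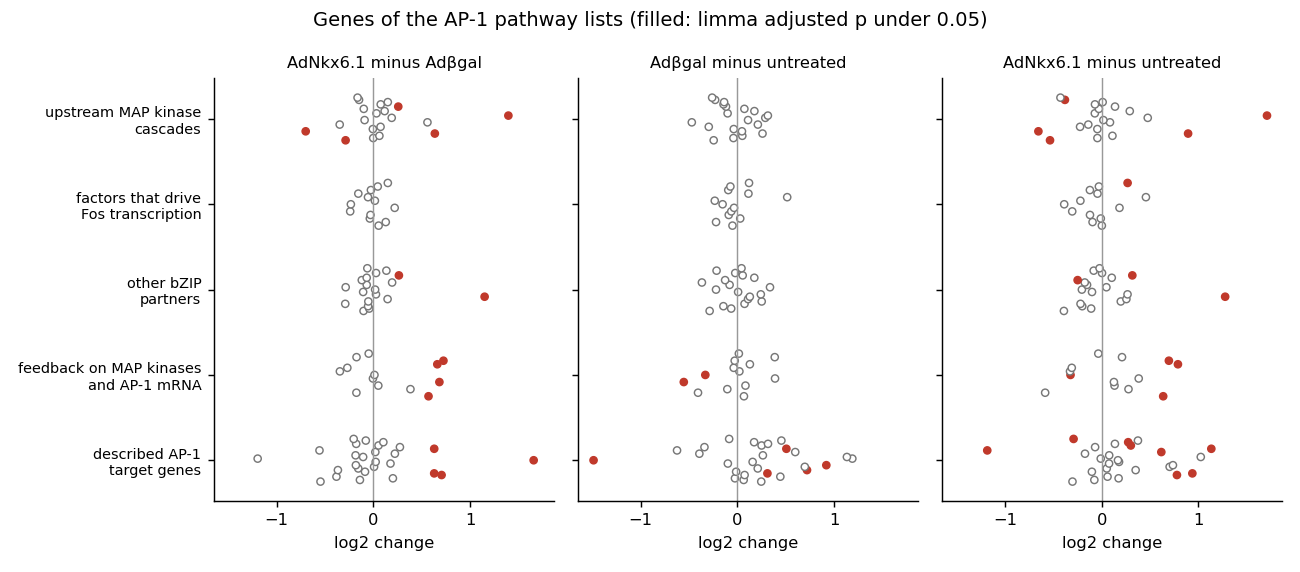
Log2 change (x axis) of the measured genes of 5 lists (19 bZIP partners, 20 MAP kinase cascade genes, 13 factors that drive Fos transcription, 13 feedback genes and 27 described AP-1 targets) in the 3 comparisons, 1 point a gene, filled where the limma adjusted p was under 0.05. Most points lie near 0; Batf3, Mapk13 and Mmp13, at 1.15, 1.40 and 1.66, were the highest of their lists in AdNkx6.1 minus Adβgal.

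Of 20 measured genes of the MAP kinase cascades, which phosphorylate AP-1 proteins and the factors that turn on their genes, 3 were higher and 2 lower in AdNkx6.1 than in Adβgal islets (median 0.05). Mapk13, the p38 delta kinase, averaged 9.36 in AdNkx6.1 islets, against 7.97 in Adβgal and 7.65 in untreated islets, a difference of 1.40 ± 0.19 between the viruses (limma adjusted p = 4.65e-05). Map2k3, a kinase that activates p38, was 0.64 ± 0.09 higher (6.31e-05), whereas Map2k6, the other main p38 activator, was lower (-0.70 ± 0.13, 0.000872). Mapk8ip1, a scaffold of the JNK kinases, was 0.26 ± 0.07 higher (limma adjusted p = 0.017). The fifth call was Araf (-0.29 ± 0.09, limma adjusted p = 0.0283), which was lost without AdNkx6.1 replicates 3 or 4 or Adβgal replicate 2. The counts were 4 higher and 2 lower without Adβgal replicate 5, and 5 higher and 2 lower without replicates 4, 5 and 6. In AdNkx6.1 against untreated islets 2 of the 20 were higher and 3 lower, with Mapk13 at 1.71 ± 0.20 (limma adjusted p = 8.27e-06) and Map2k3 at 0.89 ± 0.09 (2.91e-06). The counts there were 3 higher and 3 lower without Adβgal replicate 5, and 4 higher and 4 lower without replicates 4, 5 and 6. In Adβgal against untreated islets 0 passed (1 higher and 4 lower at an unadjusted p under 0.05 in limma). Of the 13 measured factors that drive Fos transcription, among them Srf, Creb1 and their partners, 0 passed in either direction between the viruses (1 higher and 0 lower at an unadjusted p under 0.05 in limma; median -0.03). That count depends on the Adβgal arrays that stand apart: Crtc1 was lower without Adβgal replicate 5 (-0.34, limma adjusted p = 0.0371), and Elk3 was higher without replicates 4, 5 and 6 (0.42, limma adjusted p = 0.038). Srf differed by 0.15 ± 0.09 between the viruses with all arrays. In AdNkx6.1 against untreated islets Srf was the 1 factor that passed (0.27 ± 0.10, limma adjusted p = 0.044), and it lost that call in 12 of the 16 omissions of 1 array (all but AdNkx6.1 replicate 3 and Adβgal replicates 2, 4 and 5), with limma adjusted p up to 0.104. Without Adβgal replicate 5 the count was 1 higher and 2 lower, with Elk1 (-0.22, limma adjusted p = 0.0107) and Crtc1 (-0.30, limma adjusted p = 0.0496) lower. Without replicates 4, 5 and 6 it was 2 higher and 3 lower. The changes of Elk1 and Crtc1 were the same with all arrays, as this comparison holds no Adβgal array and only the shared spread moved.

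Of 13 genes that feed back on MAP kinases or on AP-1 mRNA, 4 were higher and 0 lower in AdNkx6.1 than in Adβgal islets (0 lower at an unadjusted p under 0.05 in limma), while the list's median of 0.01 lay beside 0.02 for all genes. Zfp36, which binds and destabilises short-lived mRNAs, averaged 11.41 in AdNkx6.1 and 10.68 in Adβgal islets (0.72 ± 0.12, limma adjusted p = 0.00035). Dusp5, a phosphatase of nuclear ERK, differed by 0.68 ± 0.13 (0.00106), Spry4, an inhibitor of growth factor signalling, by 0.66 ± 0.14 (0.00223) and Dusp1, a phosphatase of p38 and JNK, by 0.57 ± 0.16 (0.0159). Dusp10, another phosphatase of p38 and JNK, was at -0.18 with all arrays and did not pass, but passed as lower without Adβgal replicate 5 (-0.41, limma adjusted p = 0.0326) and without replicates 4, 5 and 6 (-0.54, limma adjusted p = 0.0113). In Adβgal against untreated islets 2 of the 13 were lower and 0 higher (2 higher at an unadjusted p under 0.05). These were Dusp5 (-0.56 ± 0.13, limma adjusted p = 0.0185) and Dusp8 (-0.33 ± 0.09, limma adjusted p = 0.0387). The Dusp5 call was lost without untreated replicate 2 (limma adjusted p = 0.0568), and the Dusp8 call was lost in 8 of the 16 omissions of 1 array (AdNkx6.1 replicate 5, Adβgal replicates 4, 5 or 6, and untreated replicates 1, 2, 4 or 5). AdNkx6.1 and untreated islets differed in Dusp5 by 0.13 ± 0.14 (limma adjusted p = 0.527). In AdNkx6.1 against untreated islets 3 of the 13 were higher and 1 lower; Zfp36 (0.70 ± 0.13), Spry4 (0.79 ± 0.15) and Dusp1 (0.64 ± 0.17) were the 3, and Dusp8 was the 1 (-0.32 ± 0.10, limma adjusted p = 0.0175). Without Adβgal replicate 5 the count was 4 higher and 3 lower, with Dusp6, Dusp10 and Spry2 added, and without replicates 4, 5 and 6 it was again 4 and 3. Here too the changes stayed the same and only the shared spread moved.

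Of 27 measured genes described as AP-1 targets, 4 were higher and 0 lower in AdNkx6.1 than in Adβgal islets, and 4 were lower at an unadjusted p under 0.05 in limma; the median was -0.08. The share of these targets called higher was no larger than that of all genes (16.6%). Without Adβgal replicates 4, 5 and 6 the count was 5 higher and 0 lower, as Mmp9, a gelatinase, passed at 1.01 (limma adjusted p = 0.013, against -0.11 with all arrays). Gclc, a subunit of the enzyme that limits glutathione synthesis, was 0.63 ± 0.08 higher (limma adjusted p = 1.86e-05). Ezr, which encodes the membrane linker ezrin, was 0.71 ± 0.10 higher (6.10e-05) and Plaur, the urokinase receptor, 0.63 ± 0.12 higher (0.00142). Mmp13, a collagenase, averaged 8.07 in AdNkx6.1 islets, 6.41 in Adβgal islets and 7.90 in untreated islets. It was 1.66 ± 0.34 higher with the Nkx6.1 virus than with the control virus (limma adjusted p = 0.00176) and 1.49 lower with the control virus than in untreated islets (-1.49 ± 0.34, limma adjusted p = 0.0158). AdNkx6.1 and untreated islets differed in Mmp13 by 0.17 ± 0.35 (limma adjusted p = 0.765).

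Adβgal against untreated islets had 4 of the 27 target genes higher and 1 lower (median 0.25, beside -0.04 for all genes). Without Adβgal replicates 4, 5 and 6 the counts were 2 higher and 2 lower. Plaur differed by 0.51 ± 0.12 (limma adjusted p = 0.0239), Gclc by 0.31 ± 0.08 (0.0248) and Hbegf, a ligand of the EGF receptor, by 0.72 ± 0.18 (0.0274). Leaving out Adβgal replicate 6 ended the call for each of these 3. Omitting 1 of the untreated arrays did so too: replicates 1 or 4 for Plaur, 2, 3 or 5 for Gclc, and 4 or 5 for Hbegf. The remaining gene called higher was Il6 (0.92 ± 0.27, limma adjusted p = 0.0479). It lost that call in 14 of the 16 omissions of 1 array. In AdNkx6.1 against untreated islets 6 of the 27 were higher and 2 lower (median 0.17). Among the 6, Timp1 lost its call in 7 of the 16 omissions of 1 array and Penk in 2. The counts were 7 higher and 2 lower without Adβgal replicate 5, and 8 higher and 2 lower without replicates 4, 5 and 6. Gclc (0.94 ± 0.08, limma adjusted p = 4.07e-07), Plaur (1.13 ± 0.13, limma adjusted p = 8.30e-06) and Ezr (0.78, limma adjusted p = 2.98e-05) were higher, and Plau, the urokinase that Plaur binds, was lower (-1.18 ± 0.22, limma adjusted p = 0.000642).

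The genes whose log2 values followed each AP-1 gene most closely over the 16 arrays are given as a description, since the arrays of a group share their treatment. Fosb was nearest to Mmp17 (Pearson r = 0.981), Reep4 (0.971) and Slc52a3 (0.971). Fosl1 was nearest to Cenpn (0.980), Rab20 (0.975) and Slc15a1 (0.973), and Maff to Cldn3 (0.983), Gclc (0.980) and Arrdc2 (0.979). For Fos the nearest were Plxnb1 (0.959), Reep4 (0.953) and Ung (0.952), and for Atf3 they were Elp5 (0.947), Pold2 (0.946) and Micall2 (0.937). The highest r was lower for the other genes, at 0.930 with Zmat2 for Jund, 0.902 with Dusp2 for Fosl2, 0.858 with Rtp3 for Jun and 0.764 with Wdr82 for Junb.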

How the data were processed

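RNA of 16 islet samples was hybridised to 1-colour Affymetrix arrays, per the labels. The deposited table holds linear intensity values that the authors made with RMA, per the submitters' processing notes; its version and the array annotation are not given in the sources used here. The table has 6 Adβgal columns although the labels state 5 replicates for each condition, and all 6 were used. Log2 was taken with no added value. The 57 control probe sets were left out. No detection calls were used, so dim probe sets stayed in. Probe sets with 1 gene symbol (20826) gave 14217 genes, each read from its probe set with the highest mean, and 436 with several symbols and 9780 with none stayed out of gene tests. limma 3.58.1 in R 4.3.3 fitted the 3 groups together (lmFit, contrasts.fit, eBayes), 2-sided, with Benjamini-Hochberg adjustment over all genes, or over all 31042 probe sets where probe sets are compared, and adjusted p under 0.05 as the threshold. The 9 members and all gene lists were chosen with earlier results of these data known. Named list genes were up to 4 of each list with the smallest p in a comparison, and named like genes were the 3 with the highest Pearson r. The labels do not say whether equal replicate numbers mark a shared islet isolation. Of 15 same-numbered pairs, 3 had a correlation of deviations over 0.1 (range -0.39 to 0.25). That check cannot settle the question, as the wide spread among Adβgal arrays could hide a pairing. The fit was tested on simulated data. Alternatives were the replicate block, means of probe sets, all probe sets, repeated quantile normalization and a filter on dim genes. Further ones were an added 32 before the log, 2 groups in the fit, array weights, a trended robust eBayes and omitted arrays. Leaving out Adβgal replicate 5, or replicates 4 to 6, for the gene and marker lists was chosen after seeing the data. Genes named for a call gained or lost that way were named after their values were seen. So were Araf, Il6, Timp1, Penk and single cell type markers.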

Additional observations from a re-analysis of the deposited data

Results flagged for a closer look

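Fosl1 read 8.61 on Adβgal replicate 5, while the other Adβgal arrays lay between 6.31 and 7.11, so 1 array stood far from its group. The Fosl2 probe set 1387530_a_at read 6.66 on AdNkx6.1 replicate 1, with the other AdNkx6.1 arrays between 6.18 and 6.28. These were 2 of 45 groups of arrays checked (4.44%), and chance alone marks about 1 in 20.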

How the results depend on the processing

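In AdNkx6.1 against Adβgal islets, Fos, Fosb, Fosl1, Atf3 and Maff kept their direction and their call under every alternative tried, including each omitted array; the count of members higher was 5, or 6 when Adβgal replicate 1 was left out and Jun passed. The count of genes changed was 3560, with 2783 to 3933 when 1 array was left out and the fit over all 31042 probe sets called 6196 probe sets. Adβgal against untreated islets was less stable: 997 genes changed, against 393 with a replicate block, 2685 probe sets in the fit over all of them, 521 with 2 groups in the fit, 1790 with array weights, 552 without Adβgal replicates 4, 5 and 6, and 509 to 1503 with 1 array left out. The lowest of these omissions was untreated replicate 5 and the highest Adβgal replicate 2; the counts without Adβgal replicate 6 and untreated replicates 1, 2 and 4 were 647, 620, 532 and 526. There 2 members were higher, but 1 with the replicate block, repeated quantile normalization or 2 groups, 0 without Adβgal replicates 4, 5 and 6, and 1 to 2 with 1 array left out, since Maff missed the threshold (limma adjusted p 0.149, 0.0512 and 0.0995 in the first 3). With array weights 1 member was lower, Fos (-0.34, limma adjusted p = 0.0482). In AdNkx6.1 against untreated islets array weights gave 7469 genes changed, beside 4360, and 8 members higher, with Junb (0.25, limma adjusted p = 0.0174) and Jund (0.15, limma adjusted p = 0.0344) added; the replicate block left 5, as Jun missed it (limma adjusted p = 0.0525). Signs turned only for changes that had not passed. Jund between the viruses was -0.0091 with the replicate block and -0.019 to 0.11 with 1 array left out. Fosb in Adβgal against untreated islets was -0.029 with the replicate block, -0.025 after quantile normalization, -0.15 with array weights, -0.62 without Adβgal replicates 4, 5 and 6, and -0.11 to 0.32 with 1 array left out. Junb there was -0.034 after quantile normalization and -0.021 to 0.078 with 1 array left out. Jund averaged over its probe sets was -0.11 in Adβgal against untreated islets and -0.064 in AdNkx6.1 against untreated islets. The cause of these shifts was not tested. The block stayed an alternative, as the labels do not say whether equal numbers mark a shared isolation. Of all member changes recomputed, 663 stayed on their side of the threshold with their sign, 16 lost a call, 4 gained one and 19 turned.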
